A study of Mus musculus with 14 samples.

Results

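The 9 genes described here make, break down, bind and sense retinoic acid: Aldh1a1, Aldh1a2, Aldh1a3, Cyp26a1, Cyp26b1, Stra6, Crabp2, Rara and Rarb. They were chosen by name, and all 9 were found among the 22798 genes of the table. Of these, 7 passed the filter on low values, a level of 1 FPKM or more in 3 or more libraries, which kept 12694 genes. Cyp26b1 and Stra6 stayed below it. Aldh1a3 passed only through the forestomach controls, so it had to differ between groups to be kept.

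RNA was sequenced from epithelial cells of mouse embryonic stomach at E14.5 in 14 libraries. The gene altered was Gata4, a zinc-finger transcription factor gene active in foregut endoderm. The hindstomach, which becomes the glandular stomach, gave 3 libraries with the genotype G4 cKO control (replicates 2, 3 and 4) and 5 with the genotype G4 cKO mutant (replicates 1 to 5), called a GATA4 knock out in the sample names. The forestomach, which becomes a squamous lining in rodents, gave 3 libraries with the genotype G4 cKI control (replicates 2, 3 and 5) and 3 with the genotype G4 cKI mutant (replicates 1, 2 and 4), called a GATA4 knock in. Both kinds of control are called wild type in the sample names, and they belong to different crosses, so region and cross cannot be told apart. The labels name neither the promoter that drives recombination nor the alleles the controls carry, nor any pooling of embryos. The labels do not say that samples came from separate animals, so p-values measure sample spread that may be technical. Both mutant groups are compared with the controls of their own region, which also form the regional comparison, so the comparisons share control libraries.

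Gata4 itself, as a check of the labels, stood at 65.7, 61.5 and 64.9 FPKM in hindstomach controls, against 16.9, 19.4, 13.0, 32.1 and 59.6 FPKM in the libraries labelled knockout 1 to 5. The groups did not overlap, but the library labelled knockout 5 lay close to the controls. The difference of -1.37 on the log2(FPKM + 1) scale (SE 0.47) did not pass the limma test (adjusted p = 0.0672), and was -1.68 (adjusted p = 0.0134) without that library. Without any other single hindstomach library the limma adjusted p ran from 0.0840 to 0.197. With each library's slope on transcript GC content, described below, as a covariate, the difference was -0.38 (limma adjusted p = 0.354). Of 19 alternative fits, 6 gave a call. Forestomach controls held 4.50, 1.33 and 0.57 FPKM of Gata4, against 0.40, 0.32 and 1.27 FPKM for the knock-in label. Gata4 was thus not higher in the libraries labelled knock-in, and every direction given for them rests on their labels.

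Depth in reads was unknown, since FPKM (fragments scaled by transcript length and library total) holds no counts, and relative depth read from the steps between low values ran from 48.4% to 100% of the deepest library. All 8 epithelial marker genes passed the filter, and they summed to 1230 to 1497 FPKM in hindstomach controls, 475 to 993 in the libraries labelled knockout, 410 to 969 in forestomach controls and 520 to 936 in those labelled knock-in. Libraries also differed in how their values followed the GC content of transcripts. Per 10% GC, the slope of the centred log2 values lay between 0.563 and 0.609 in hindstomach controls and was -0.523, -0.415, -0.575, 0.095 and 0.488 in the libraries labelled knockout 1 to 5. It was 0.816, 0.619 and -0.609 in forestomach controls 2, 3 and 5, and -0.700, -0.841 and -0.091 in the libraries labelled knock-in 1, 2 and 4. Forestomach control 5, the libraries labelled knockout 4 and 5 and the library labelled knock-in 4 thus stood apart from the rest of their groups. Results are given with this slope as a covariate where that changes the call of a named gene or the calls of a pathway list. The slope comes from the same values, so passing with it is no independent check. The median difference over all genes tested was -0.08 for the libraries labelled knockout and -0.37 for those labelled knock-in, and it became 0.16 and -0.04 after rescaling to a common sum.

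Cells make retinoic acid from vitamin A (retinol) by oxidation to retinaldehyde and then, through the retinaldehyde dehydrogenases ALDH1A1, ALDH1A2 and ALDH1A3, to the acid. CYP26 enzymes hydroxylate and remove it, STRA6 takes up retinol, and CRABP2 carries the acid to nuclear receptors of the RAR family, which pair with RXR proteins on DNA. In the embryonic gut Aldh1a2 is best known from mesoderm-derived tissue, and retinoic acid is known to pattern the foregut along its length.

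Rarb and Cyp26a1 are textbook targets of retinoic acid with receptor elements near their start sites, so their start regions are shown. The windows are from RefSeq (GRCm38.p6, not the build of the expression values), run from 250 bases before to 50 bases after the annotated start, and are written on the gene's strand. Capitals mark a direct repeat of the core letters AGGTCA, or the variant GGGTCA, or the variant AGTTCA, or the variant GGTTCA, with a spacer of 5 bases, searched on both strands. Rarb lies at chr14:16575427-16575726 on the minus strand, and Cyp26a1 at chr19:37697558-37697857 on the plus strand.
Rarb: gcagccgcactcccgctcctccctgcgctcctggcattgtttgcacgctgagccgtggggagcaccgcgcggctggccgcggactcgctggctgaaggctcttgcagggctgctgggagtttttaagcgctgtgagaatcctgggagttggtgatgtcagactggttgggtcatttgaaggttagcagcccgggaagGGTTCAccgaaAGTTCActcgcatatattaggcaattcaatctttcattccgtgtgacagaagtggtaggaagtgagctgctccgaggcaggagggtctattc
Cyp26a1: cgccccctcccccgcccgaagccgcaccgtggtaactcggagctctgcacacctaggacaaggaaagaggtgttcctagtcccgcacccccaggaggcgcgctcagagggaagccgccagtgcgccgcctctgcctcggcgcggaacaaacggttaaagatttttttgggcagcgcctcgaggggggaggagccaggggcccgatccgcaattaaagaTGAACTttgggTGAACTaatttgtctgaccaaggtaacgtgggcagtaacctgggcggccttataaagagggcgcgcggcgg
In Rarb the repeat ran from base -53 to base -37 of the start. In Cyp26a1 it ran from base -32 to base -16 on the opposite strand. Among all 32851 windows of the same length, 32 held such a repeat (0.097%), and with a spacer of 1 or 2 bases 0.222% and 0.268% did. A window was at hand for 7 of the 9 genes, and no other window among these had a repeat with a spacer of 1, 2 or 5 bases. A match is a description of letters and not of binding. Aldh1a3 and Crabp2 are named only.

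Among the synthesis enzymes, Aldh1a1 was the main transcript of control hindstomach and Aldh1a2 that of control forestomach, and both differed in the mutant groups in opposite directions. Aldh1a1 had 45.9, 40.0 and 71.1 FPKM in hindstomach controls 2, 3 and 4 and 21.8, 19.9, 27.0, 12.2 and 16.9 FPKM in the libraries labelled knockout 1 to 5. It had 15.9, 22.4 and 15.4 FPKM in forestomach controls 2, 3 and 5 and 113, 104 and 105 FPKM for the knock-in label 1, 2 and 4. Every library labelled knock-in lay above every other library, and every library labelled knockout lay below every hindstomach control, in a range that overlapped the forestomach controls.

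**Figure D1:**
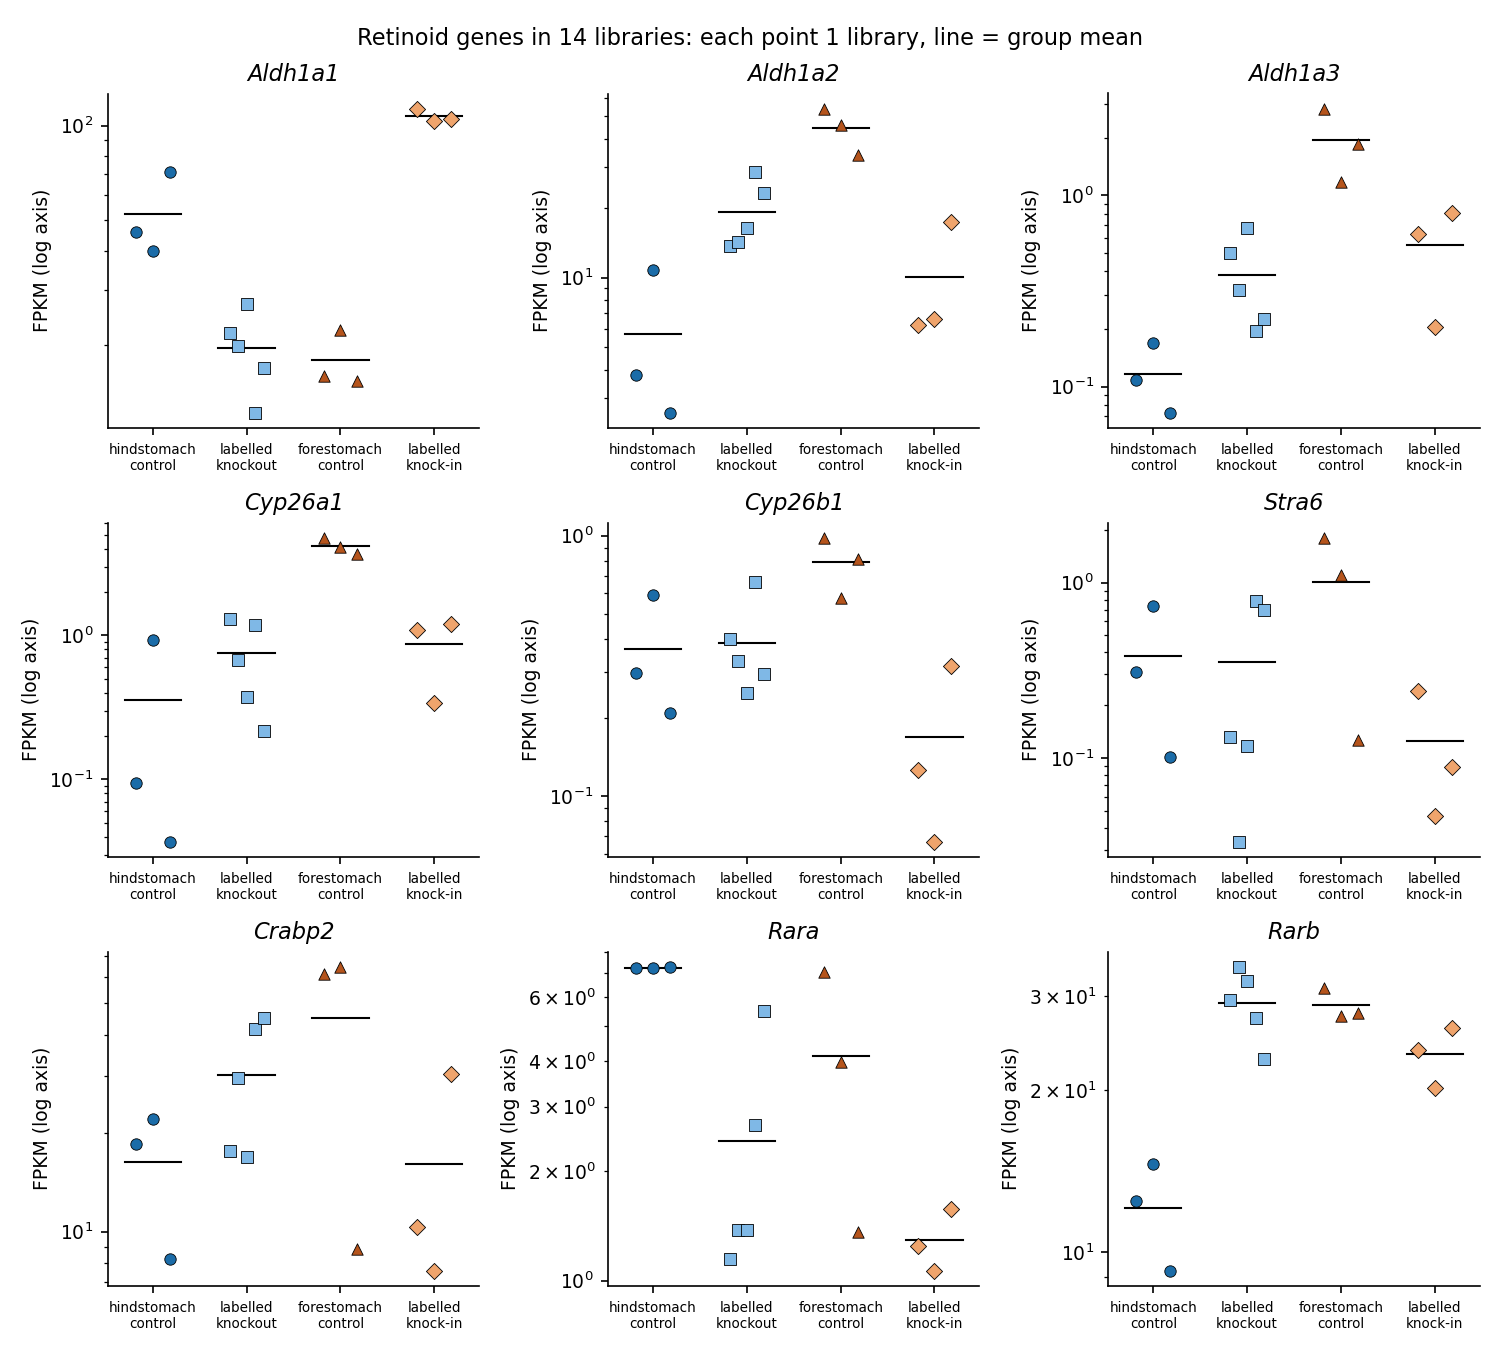
FPKM of each of the 9 retinoid genes in 14 libraries, on a log axis, with 1 point per library and a line at the group mean. Aldh1a1 lies highest in the libraries labelled knock-in, and Rarb lies lowest in the hindstomach controls.

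The means of Aldh1a1 were 52.3 ± 16.5 FPKM in hindstomach controls (SD, n = 3), 19.6 ± 5.51 in the libraries labelled knockout (n = 5), 17.9 ± 3.92 in forestomach controls (n = 3) and 107 ± 5.17 in those labelled knock-in (n = 3). Aldh1a1 fell by 1.38 on the log2 scale in the libraries labelled knockout (SE 0.24, limma adjusted p = 0.00492), which is a mean 2.68-fold lower. It rose by 2.54 in the libraries labelled knock-in (SE 0.27, limma adjusted p = 0.000518), a mean 6.00-fold higher, and by 2.91 relative to the median of all genes. Control hindstomach exceeded control forestomach by 1.47 (SE 0.27, limma adjusted p = 0.00202). The exact two-sided permutation p was 0.0357 for the knockout label, the smallest that 56 splits allow, and 0.1 for the others, the smallest that 20 splits allow. The knock-in call was lost when the forestomach groups were fitted alone (limma adjusted p = 0.0522).

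Sums of the glandular markers differed in the direction of Aldh1a1 in each comparison, and sums of the squamous markers in the opposite direction. The squamous sums overlapped between the forestomach groups. The 12 glandular hindstomach genes summed to 2336 to 6786 FPKM in hindstomach controls, 189 to 653 in the libraries labelled knockout, 2.03 to 8.18 in forestomach controls and 25.4 to 122 in those labelled knock-in. Of the 10 tested, 10 fell for the knockout label, 3 rose for the knock-in label and 10 were higher in hindstomach between the controls. Of all genes tested, 6.28%, 2.62% and 9.7% were so called. The sums rest largely on Cym, with means of 3759 FPKM in hindstomach controls, 150 for the knockout label and 31.1 for the knock-in label. Tspan8 followed for the knock-in label, with a mean of 22.6 FPKM. Agr2 went the other way between the forestomach groups, with means of 1.92 FPKM in controls and 0.466 for the knock-in label. Gkn3, Tff1, Tff2, Pgc and Atp4b needed the hindstomach controls to pass the filter, so the filter favoured lower values elsewhere. The number at 0 in all libraries of a group was 1 for the libraries labelled knockout, 4 for forestomach controls and 3 for those labelled knock-in. Below 1 FPKM in all libraries of a group were 1, 5, 9 and 8 of the 12, in the order of the sums. The libraries labelled knock-in had the most Aldh1a1, but their glandular sums lay below those of hindstomach controls. The 10 squamous forestomach genes summed to 18.9 to 25.1, 35.3 to 80.1, 217 to 1972 and 59.0 to 235 FPKM in the same order, with 1 gene at 0 in all hindstomach controls. Of the 9 tested, 2 rose for the knockout label, 6 fell for the knock-in label (2 with the GC slope) and 8 were lower in hindstomach between the controls. Of all genes tested, 6.96%, 3.22% and 10.7% were so called. Krt13, Dsc3 and Dsg3 needed the forestomach controls to pass the filter, which again favoured lower values elsewhere. The summed epithelial markers were also lower in the libraries labelled knockout than in hindstomach controls, without overlap. Of these 8 genes 0 were called for the knockout label (limma, 3 at an unadjusted p under 0.05). The genes differed in size of change: mean Krt18 was 329 FPKM in controls and 59.4 for the knockout label, and mean Epcam 382 and 298. The part of the cells marked by these lists in the Aldh1a1 result was not tested.

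Aldh1a2 differed in the other direction from Aldh1a1 in each of the 3 comparisons. Aldh1a2 had 3.78, 10.8 and 2.60 FPKM in hindstomach controls and 13.7, 14.3, 16.4, 28.8 and 23.1 FPKM in the libraries labelled knockout 1 to 5. It had 53.9, 45.9 and 34.0 FPKM in forestomach controls and 6.23, 6.65 and 17.4 FPKM for the knock-in label. Groups did not overlap in any of the 3 comparisons, and the forestomach controls were highest. Aldh1a2 rose by 1.73 in the libraries labelled knockout (SE 0.41, limma adjusted p = 0.0204), a mean 3.37-fold higher. That call was lost without hindstomach control 2 (1.58, adjusted p = 0.101) or 4 (1.38, adjusted p = 0.134). With the GC slope as a covariate it was 2.29 (limma adjusted p = 0.00454).

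For the knock-in label Aldh1a2 fell by 2.16 (SE 0.46, limma adjusted p = 0.0253), a mean 4.41-fold lower. The call was lost with the GC slope as a covariate (-1.55, adjusted p = 0.0563) and in the forestomach groups alone (adjusted p = 0.266). It was also lost without forestomach control 2 (-2.01, adjusted p = 0.122) or 3 (-2.12, adjusted p = 0.0621), and without the library labelled knock-in 1 (-1.92, adjusted p = 0.104) or 2 (-1.96, adjusted p = 0.122). Control hindstomach was lower than control forestomach by a log2 difference of -2.93 (SE 0.46, limma adjusted p = 0.000738).

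By group, mesenchymal marker sums differed in the direction of Aldh1a2 in each comparison, without overlap. Mesothelial sums did so in part, since they overlapped between the hindstomach groups. There Msln of the mesothelial list went the other way, with means of 23.7 FPKM in controls and 2.70 for the knockout label. Within the knockout label, library 1, lowest for Aldh1a2, had the highest mesenchymal sum (772 FPKM) and library 5 the lowest (276 FPKM). Libraries 4 and 5, highest for Aldh1a2, had the highest mesothelial sums (62.3 and 62.05 FPKM). The 7 matched mesothelial genes of 8 listed summed to 39.7 to 48.9 FPKM in hindstomach controls, 35.7 to 62.3 in the libraries labelled knockout, 135 to 196 in forestomach controls and 43.9 to 67.7 in those labelled knock-in. The 12 mesenchymal genes summed to 58.9 to 198, 276 to 772, 770 to 1237 and 212 to 574 FPKM in the same order, and no gene of either list was at 0 in all libraries of a group. Of the mesothelial genes, 3 rose and 1 fell in the libraries labelled knockout, 4 fell in those labelled knock-in, and 6 were lower and 1 higher in hindstomach between the controls. Of the mesenchymal genes, 9 rose, 3 fell and 10 were lower in these comparisons, and 5, 1 and 12 with the GC slope as a covariate. Of all genes tested, 6.96% rose and 6.28% fell for the knockout label, and 2.62% rose and 3.22% fell for the knock-in label. Between the controls 9.7% were higher and 10.7% lower in hindstomach. With the GC slope 961 rose, 376 fell and 2513 were lower, of 12694 genes. Smooth muscle markers had 1 call, higher, for the knockout label and 0 for the knock-in label (limma, 7 at an unadjusted p under 0.05). Endothelial, leukocyte and red blood cell markers had 0 calls for both labels (limma, 3, 2 and 0 unadjusted for knockout, and 1, 5 and 4 for knock-in). The part of these cells in the Aldh1a2 result was not tested. In bulk samples fewer cells of a type and less RNA per cell cannot be told apart.

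**Figure D2:**
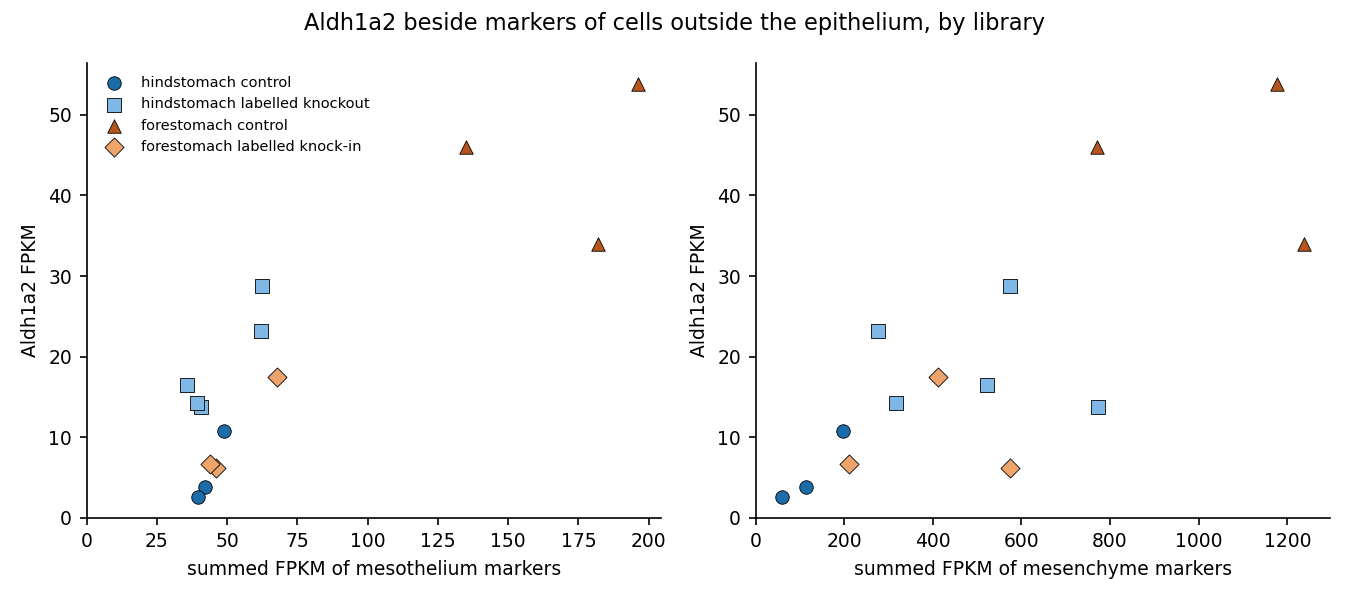
Aldh1a2 FPKM against the summed FPKM of mesothelium markers (left) and mesenchyme markers (right), with 1 point per library. The forestomach controls lie highest for Aldh1a2 and for the mesothelial sum, where they reach 135 to 196 FPKM.

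Aldh1a3, the third enzyme, was low throughout. It had 0.108, 0.169 and 0.0730 FPKM in hindstomach controls, 0.195 to 0.676 FPKM (median 0.319) in the libraries labelled knockout, 2.83, 1.17 and 1.85 FPKM in forestomach controls and 0.626, 0.206 and 0.812 FPKM in those labelled knock-in. The forestomach controls were highest and overlapped with no other group. Since Aldh1a3 reached 1 FPKM in the forestomach controls and in no other library, its comparisons with them are given as values, without a test. The log2 difference in the libraries labelled knockout was 0.30 (SE 0.20, limma adjusted p = 0.257).

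Levels in FPKM are per length, so the 3 synthesis transcripts can be added. Aldh1a1 made up 78.6% to 96.4% of the summed FPKM in hindstomach controls, 29.6% to 61.2% in the libraries labelled knockout, 21.9% to 32.2% in forestomach controls and 85.2% to 94.3% in those labelled knock-in. The sums were 49.8 to 73.8, 34.6 to 44.1, 51.2 to 72.6 and 111 to 124 FPKM. The shares are descriptive, and the labels do not say how the authors assigned fragments between close copies.

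**Figure D3:**
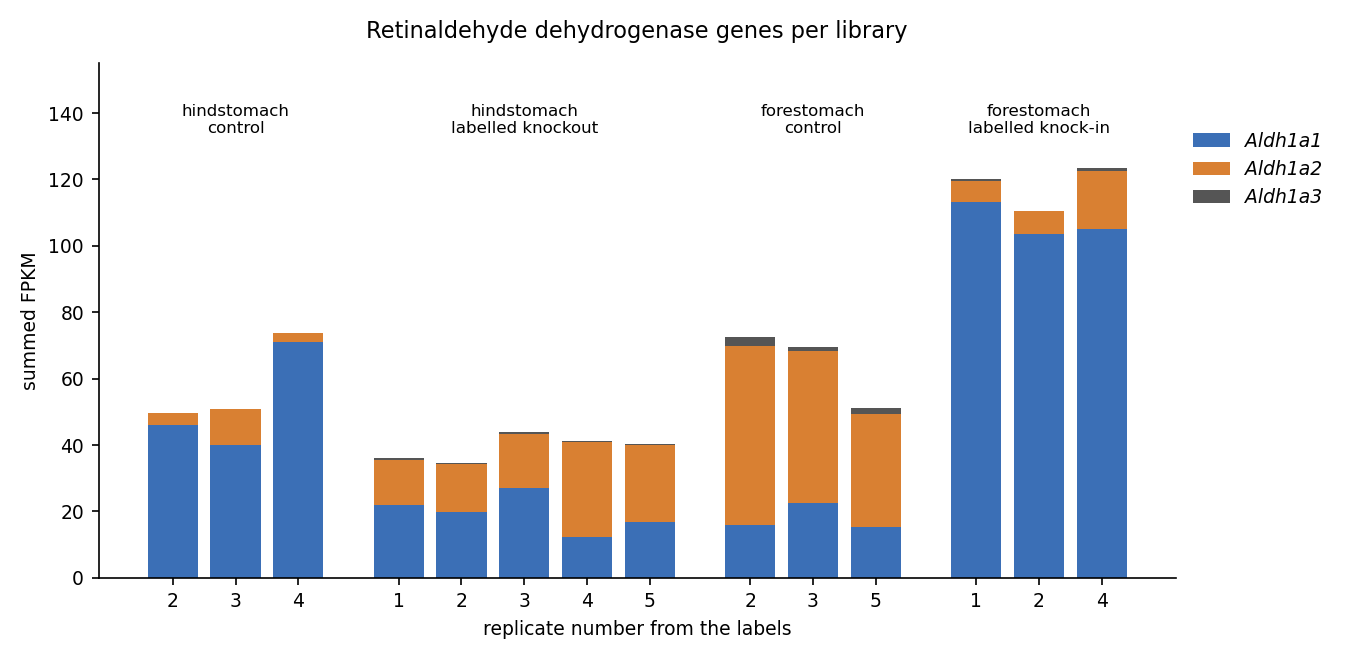
Stacked bars of summed FPKM of Aldh1a1, Aldh1a2 and Aldh1a3 per library. Aldh1a1 makes up 85.2% to 94.3% of the sum in the libraries labelled knock-in and 21.9% to 32.2% in forestomach controls.

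Aldh1a7, a close copy of Aldh1a1 that neighbours it on chromosome 19, was the gene most like it across the 14 libraries (Pearson r = 0.963). Libraries of a group share their condition, so the points are not independent. Aldh1a7 had 142 to 186 FPKM in the libraries labelled knock-in and 29.6 to 43.3 FPKM in forestomach controls, a rise of 2.08 (SE 0.21, limma adjusted p = 0.000347). That call was lost in the forestomach groups alone (adjusted p = 0.0917). It fell by 0.87 in the libraries labelled knockout (SE 0.19, limma adjusted p = 0.0145), a call lost without hindstomach control 2 (0.0596) or 4 (0.110). The ratio of Aldh1a7 to Aldh1a1 ran from 1.26 to 2.72 over the libraries, and how fragments were split between them is uncertain. Next in likeness to Aldh1a1 were Sptssb (r = 0.915) and Ppp1r3b (r = 0.913). Aldh1a2 was most like Ttc28 (r = 0.963), Podxl (r = 0.958, a gene of the mesothelial list) and Mtmr11 (r = 0.957).

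The breakdown enzymes were highest in control forestomach. Cyp26a1 had 4.78, 4.11 and 3.68 FPKM in forestomach controls and 1.09, 0.339 and 1.20 FPKM for the knock-in label. It had 0.0937, 0.934 and 0.0368 FPKM in hindstomach controls and 0.216 to 1.30 FPKM (median 0.673) in the libraries labelled knockout. The forestomach controls overlapped with no other group, while the hindstomach groups overlapped. Cyp26a1 fell by 1.50 in the libraries labelled knock-in (SE 0.31, limma adjusted p = 0.0222), a mean 4.77-fold lower, and by 1.12 relative to the median of all genes. Control hindstomach was lower than control forestomach (-1.99, SE 0.31, limma adjusted p = 0.000678). The knockout label gave 0.39 (SE 0.28, limma adjusted p = 0.288). With the GC slope as a covariate the knock-in call was kept (-1.44, limma adjusted p = 0.0362).

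The knock-in call on Cyp26a1 was lost under a pseudocount of 0.1 (adjusted p = 0.0842), quantile normalization (adjusted p = 0.0893) and a fit of the forestomach groups alone (adjusted p = 0.283). It was lost without forestomach control 2 (adjusted p = 0.108) or 3 (adjusted p = 0.0522) and without the library labelled knock-in 1 (adjusted p = 0.0602) or 2 (adjusted p = 0.112). Scaled by relative depth, Cyp26a1 was compared with its lowest value, that of hindstomach control 4. It lay within 0.1 of a whole multiple of that value in 11 of 14 libraries, which counts control 4 itself. Cyp26b1, its relative, had 0.982, 0.576 and 0.816 FPKM in forestomach controls and 0.126, 0.0667 and 0.315 FPKM for the knock-in label, with no overlap. In the fit without a filter on low values it gave -0.62 (SE 0.14, limma adjusted p = 0.0409). In the hindstomach it lay between 0.208 and 0.663 FPKM in all 8 libraries, with overlapping groups.

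Neither Stra6, for uptake, nor Crabp2, for binding, was called from the FPKM as deposited. Stra6, the membrane retinol transporter, had 1.80, 1.11 and 0.126 FPKM in forestomach controls, 0.239, 0.0466 and 0.0887 FPKM for the knock-in label, and 0.0332 to 0.782 FPKM in the hindstomach libraries. Its groups overlapped in every comparison, and it gave no call in the unfiltered fit. Crabp2, the intracellular carrier, had 18.6, 22.2 and 8.24 FPKM in hindstomach controls and 17.6, 29.5, 16.9, 41.7 and 45.1 FPKM in the libraries labelled knockout 1 to 5. It had 61.3, 64.7 and 8.82 FPKM in forestomach controls 2, 3 and 5 and 10.3, 7.59 and 30.3 FPKM for the knock-in label. Outside the hindstomach controls its lowest values were in libraries with a GC slope below 0, among them forestomach control 5.

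The log2 differences of Crabp2 were 0.84 (SE 0.64, limma adjusted p = 0.319) for the knockout label, -1.24 (SE 0.72, adjusted p = 0.198) for the knock-in label and -1.09 (SE 0.72, adjusted p = 0.324) between control regions. With the GC slope they were 2.22 (limma adjusted p = 0.00230), 0.23 (adjusted p = 0.754) and -1.64 (adjusted p = 0.00149). Without forestomach control 5 the knock-in difference was -2.14 (limma adjusted p = 0.0114) and the regional one -1.99 (adjusted p = 0.0323). The part of the slope in these results was not tested.

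**Figure D4:**
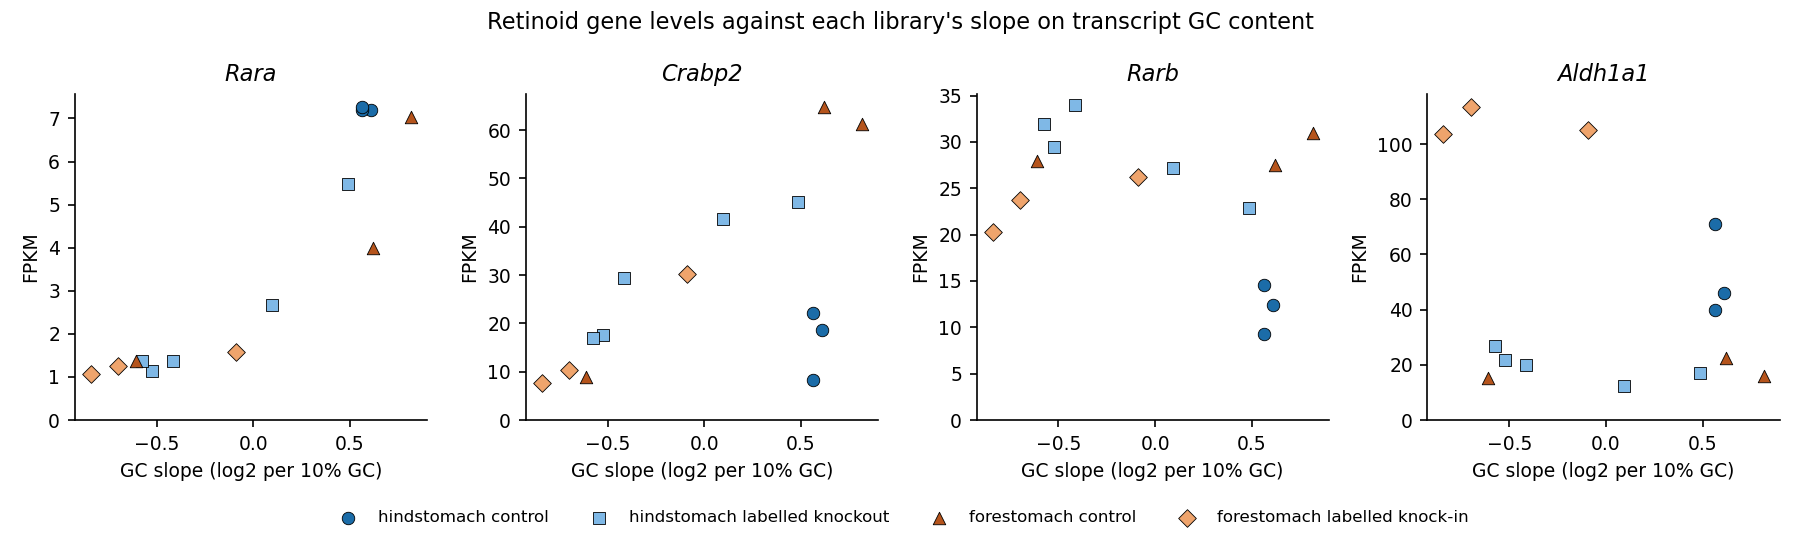
FPKM of Rara, Crabp2, Rarb and Aldh1a1 against each library's GC slope, with 1 point per library. Rara stays at 1.57 FPKM or less in libraries with a slope below 0, and the library labelled knockout 5, with a slope of 0.488 near the hindstomach controls, has 16.9 FPKM of Aldh1a1 and 22.9 FPKM of Rarb.

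Of the receptor genes, Rarb was called for the knockout label and between control regions, and Rara for the knockout label. Rarb, which encodes retinoic acid receptor beta, had 12.4, 14.6 and 9.23 FPKM in hindstomach controls and 29.4, 34.0, 31.9, 27.2 and 22.9 FPKM in the libraries labelled knockout 1 to 5. It had 31.0, 27.5 and 27.9 FPKM in forestomach controls and 23.8, 20.3 and 26.2 FPKM in those labelled knock-in. The hindstomach controls lay below all other libraries, and the libraries labelled knockout were at the level of the forestomach controls. Rarb rose by 1.21 in the libraries labelled knockout (SE 0.16, limma adjusted p = 0.00117), a mean 2.40-fold higher, and the call held under every alternative run. Control hindstomach was lower than control forestomach by a log2 difference of -1.21 (SE 0.18, limma adjusted p = 0.000560). The knock-in label gave -0.29 (SE 0.18, limma adjusted p = 0.221), and 0.08 relative to the median of all genes. After rescaling it was 0.12 (adjusted p = 0.690).

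Rara, which encodes retinoic acid receptor alpha, had 7.20, 7.20 and 7.27 FPKM in hindstomach controls and 1.15, 1.38, 1.38, 2.68 and 5.49 FPKM in the libraries labelled knockout 1 to 5. It had 7.04, 3.99 and 1.36 FPKM in forestomach controls and 1.24, 1.06 and 1.57 FPKM in those labelled knock-in. Within the libraries labelled knockout and the forestomach controls Rara was highest where the GC slope was highest, and it had the highest transcript GC of the 9 genes (59.2%, against a median of 49.3% over genes tested). Rara fell by 1.40 in the libraries labelled knockout (SE 0.40, limma adjusted p = 0.0399). With the GC slope the difference was -0.54 (adjusted p = 0.0788), without the filter on low values it had an adjusted p of 0.0515, and with a pseudocount of 0.1 of 0.0501. Leaving out any single hindstomach library except the library labelled knockout 5 also lost the call, with adjusted p from 0.0614 to 0.153. The knock-in label gave -0.997 (limma adjusted p = 0.134), and -1.47 (limma adjusted p = 0.0127) without forestomach control 5. Between control regions Rara was higher in every hindstomach library, by 0.85 (SE 0.45, limma adjusted p = 0.216), and with the GC slope by 0.51 (adjusted p = 0.0374). The part of the slope in the Rara result was not tested. Rara was most like Med25 (r = 0.994), Obsl1 and Nudt8 over the 14 libraries.

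**Figure D5:**
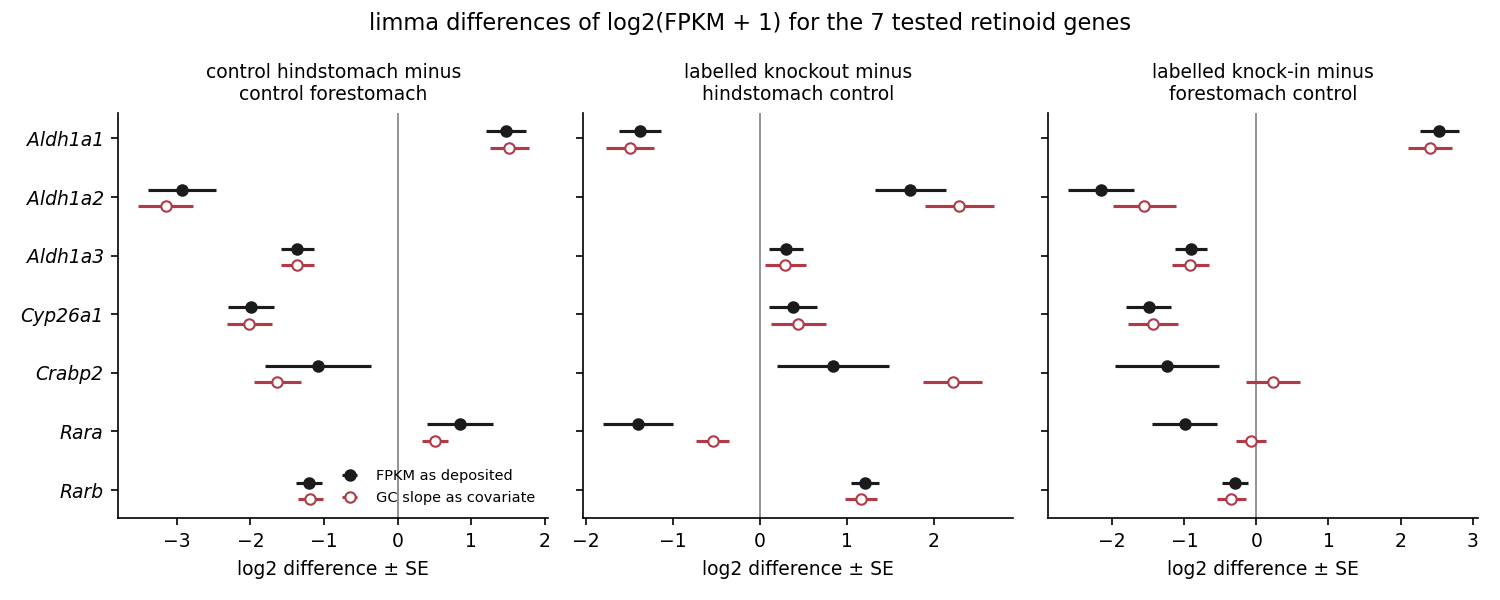
Limma log2 differences with SE for the 7 tested genes in 3 comparisons, from FPKM as deposited (filled) and with the GC slope as a covariate (open); Aldh1a3 passed the filter only through the forestomach controls. Aldh1a1 and Rarb have like values in both fits, and Crabp2 moves from 0.84 to 2.22 for the knockout label.

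Counted together, 4 of the 7 tested genes were called for the knockout label (2 higher, 2 lower), where 13.2% of all genes tested were (6.96% higher, 6.28% lower). For the knock-in label 4 were called (1 higher, 3 lower), where 5.85% of all genes were (2.62% higher, 3.22% lower). Between control regions 5 were called (1 higher and 4 lower in hindstomach), where 20.3% of all genes were (9.7% higher, 10.7% lower). Aldh1a3 is among the lower calls of both, and it entered the test through the forestomach controls alone, so it had to be lower elsewhere. With the GC slope as a covariate the counts became 3 higher and 1 lower, 1 and 1, and 2 and 5. Groups did not overlap for 5, 6 and 6 of the 9 genes, where 42.6%, 20% and 41.4% of all genes tested did not. The 9 include Cyp26b1 and Stra6, which were not among the genes tested, and Cyp26b1 is in the knock-in count. Aldh1a3 is in each count. Scaling moved the split of calls over all genes: of genes called for the knock-in label 44.9% were higher, and 76.5% after rescaling to a common sum. For the knockout label the same shares were 52.6% and 66.6%.

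Around these genes, the list of retinoic acid responsive genes held the most calls of the pathway lists, and it was also the largest. For the knockout label its share of calls did not exceed that of the other aldehyde dehydrogenases (2 of 4). Of the 19 responsive genes tested, 9 rose and 0 fell in the libraries labelled knockout (14 at an unadjusted p under 0.05). In those labelled knock-in 5 fell and 0 rose (14 unadjusted). Between the controls 12 were lower and 1 higher in hindstomach. Of all genes tested, 13.2%, 5.85% and 20.3% were called in these comparisons. The median differences of the list were 1.12, -1.13 and -1.45, beside medians over all genes of -0.08, -0.37 and 0.14. The Hox genes, which set position along the body axis, led it: Hoxa4 rose by 2.36 (SE 0.28, limma adjusted p = 0.000496) and Hoxa3 by 1.92 (SE 0.25, adjusted p = 0.000995) in the libraries labelled knockout, as did the cofactor Meis1 by 1.22 (SE 0.16, adjusted p = 0.000991). Hoxa4 had 1.05 to 3.85 FPKM in hindstomach controls and 13.2 to 17.1 FPKM in the libraries labelled knockout. In those labelled knock-in Hoxa2 fell by 1.72 (SE 0.31, limma adjusted p = 0.0125) and Hoxa4 by 1.70 (SE 0.31, adjusted p = 0.0134). Both calls were lost in the forestomach groups alone (adjusted p = 0.225 and 0.289), without forestomach control 2 (0.0657 and 0.0701) and without the library labelled knock-in 2 (0.0666 and 0.0690), and Hoxa4 also without the library labelled knock-in 1 (0.0542). Hoxb6 is among the lower calls of both comparisons with forestomach controls. It passed the filter only through those controls, so it had to be lower elsewhere. It had 4.68 to 7.77 FPKM in forestomach controls, 0.987 to 1.40 for the knock-in label and 0.0879 to 0.858 in the hindstomach libraries. Control hindstomach was lower for Meis1 (-1.45, adjusted p = 0.000145) and Hoxb2 (-2.51, adjusted p = 0.000156). In the fit with the GC slope 10 genes of the list rose for the knockout label, 9 fell for the knock-in label, and 12 were lower and 3 higher in control hindstomach. By group, mesenchymal marker sums differed in the direction of this list, at the levels given beside Aldh1a2. Enteric neuron and glia markers did so too: the 8 genes, of which 4 rose for the knockout label (0 were called in the other comparisons, limma, 3 and 2 at an unadjusted p under 0.05), summed to 18.6 to 67.0 FPKM in hindstomach controls, 93.7 to 173 in the libraries labelled knockout, 72.2 to 81.5 in forestomach controls and 26.9 to 56.5 in those labelled knock-in. The part of these cells in the list was not tested.

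The genes upstream of the dehydrogenases carry retinol or oxidize it to retinaldehyde. Of 7 tested genes of retinol transport and storage, 2 fell for the knockout label, 0 were called for the knock-in label (limma, 4 at an unadjusted p under 0.05), and 2 were higher and 1 lower in control hindstomach. Of all genes tested, 13.2%, 5.85% and 20.3% were called in these comparisons, beside which the lists that follow also stand. Ttr, which carries the retinol-binding protein in blood, fell by 1.86 (limma adjusted p = 0.0225), and Rbp4, that binding protein, fell by 1.11 (adjusted p = 0.0477) for the knockout label. Neither was called with the GC slope as a covariate (adjusted p = 0.0782 and 0.0940), where 2 other genes of the list were called higher and 0 lower. The Ttr call was lost under 6 of 19 alternatives, among them without hindstomach control 2 (0.103) or 4 (0.129) and without the library labelled knockout 1 (0.0570) or 3 (0.0511). The Rbp4 call was lost under 13 of 19, among them rescaling (0.0957), quantile normalization (0.0778) and leaving out any hindstomach library except the library labelled knockout 5 (0.0699 to 0.185). In control hindstomach Ttr was higher by 4.20 (limma adjusted p = 0.000124) and Rbp4 by 2.35 (adjusted p = 0.000840). The 1 lower call was the uptake receptor Lrp2, which passed the filter only through the forestomach controls, so it had to be lower elsewhere. Lrp2 had 1.075 to 1.92 FPKM in forestomach controls, 0.683 to 1.58 for the knock-in label and 0.311 to 0.967 in the hindstomach libraries. Of 11 oxidoreductases, Adh1 fell by 1.87 (limma adjusted p = 0.0102) for the knockout label, a call lost without hindstomach control 2 (0.0552) or 4 (0.0794). Adh7, an alcohol dehydrogenase of upper digestive epithelium, passed the filter only through the libraries labelled knock-in, with 1.55 to 2.51 FPKM there and at most 0.526 FPKM elsewhere. Dhrs9 passed it only through the forestomach controls, with 1.32 to 4.67 FPKM there, 0.160 to 1.60 for the knock-in label and 0.0184 to 0.313 in the hindstomach libraries.

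Between control regions Adh1 was higher in hindstomach (1.64, limma adjusted p = 0.0160; lost without hindstomach control 4, 0.0738, or forestomach control 5, 0.0546), and Rdh12 was lower (-2.62, adjusted p = 0.00244). Of 4 other aldehyde dehydrogenases tested, Aldh3a2 fell by 0.76 (limma adjusted p = 0.00940) for the knockout label, a call lost after rescaling (-0.48, 0.0523) and without hindstomach control 2 (0.0651) or 4 (0.0784), and was higher in control hindstomach by 1.19 (adjusted p = 0.000355). Between control regions the fit with the GC slope called 2 higher and 3 lower of the transport genes, 2 and 4 of the oxidoreductases, and 2 and 1 of these dehydrogenases. Aldh1a7 was higher in control hindstomach by 0.88 (adjusted p = 0.0111), a call lost in the control groups alone (0.0788) and without hindstomach control 4 (0.0641). Of the 12 other receptors and coregulators, 1 was called for the knockout label: Ppard, a nuclear receptor that FABP5 can supply with retinoic acid, fell by 1.36 (limma adjusted p = 0.0303). The Ppard difference was -0.60 with the GC slope (adjusted p = 0.0600), and the call was lost without any 1 hindstomach library except the library labelled knockout 5 (0.0554 to 0.144). None of the 12 was called for the knock-in label (limma, 6 at an unadjusted p under 0.05) or between control regions (1 unadjusted). In the fit with the GC slope 1 was called higher and 1 lower for the knockout label, 1 lower for the knock-in label, and 1 higher and 3 lower in control hindstomach. The carriers Fabp5 and Crabp1 gave no calls in any comparison (limma, 1, 2 and 0 at an unadjusted p under 0.05). Once the GC slope entered, 1 was called higher for the knockout label and 2 lower in control hindstomach. Fabp5 had 54.9 to 491 FPKM over the libraries, and Crabp1 0.289 to 43.8 FPKM.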

How the data were processed

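RNA was extracted with spin columns and made into strand-specific libraries with a NEBNext Ultra II kit, per the labels' protocols. The authors deposited 1 table of FPKM values with a column per library. The build is mm9, per the submitters' processing notes. No label names the aligner, quantifier or annotation, or how strand and close copies were handled. Of 22906 entries, 108 exact duplicates were dropped.

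Values were analysed as log2(FPKM + 1), which understates the change of low genes. All 14 libraries entered 1 limma model with a mean for each group (limma 3.58.1, statmod 1.5.0, R 4.3.3), with trended and robust eBayes. A call needed an adjusted p (Benjamini-Hochberg, over the 12694 genes tested) below 0.05. Single genes also had two-sided exact permutation tests over samples (scipy 1.17.1). The fit was tested on simulated data.

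Transcript GC came from an annotation of GRCm38 (99.39% of tested genes matched). Relative depth came from the commonest ratio between low FPKM values of library pairs. Alternatives were another pseudocount, other filters, rescaling, quantile normalization, array weights, the compared groups alone, eBayes without its trend, the GC slope, a replicate block and leaving out each library. Gene-by-gene array weights were added after the REML estimate of these weights had stopped before convergence and its calls had been seen.

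The genes, lists, tests and alternatives were chosen with earlier results of these data known. The rule for named genes was the 9 genes, Gata4, up to 3 called genes with the smallest adjusted p per pathway list and comparison (or the 2 with the highest FPKM where a list had no call), and the 3 genes most correlated with each tested gene. Precision is limited by the number of libraries, and depth in counts is unknown.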

Additional observations from a re-analysis of the deposited data

How the results depend on the processing

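Over 355 combinations of gene, comparison and alternative for the 7 tested genes, 299 kept direction and side of the threshold, 34 lost a call, 20 gained one and 2 reversed. The reversals were Rarb for the knock-in label after rescaling (0.12, adjusted p = 0.690) and Crabp2 with the GC slope (0.23, adjusted p = 0.754). Gata4 for the knock-in label also reversed with the GC slope (0.30, adjusted p = 0.555). The cause was not tested.

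For the knockout label 1680 genes were called. A filter at a mean FPKM of 5 gave 656 (fewer genes tested), the compared groups alone 4991, REML array weights 9688, gene-by-gene array weights 9780, and leaving out 1 library 267 to 4124. For the knock-in label 742 genes were called. The filter gave 437, quantile normalization 489, the compared groups alone 0 (1932 at an unadjusted p under 0.05), REML array weights 10680, gene-by-gene weights 9262, and leaving out 1 library 118 to 7015. Between control regions 2583 were called, and the filter gave 1333, the groups alone 1431, REML weights 5870, gene-by-gene weights 4405, the GC slope 5327, and leaving out 1 library 1532 to 2680. The REML estimate of the weights stopped before convergence, with a weight of 173 for the library labelled knock-in 1, and its counts are given for completeness.

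Of the retinoid genes, 4 were called for the knockout label and 2 to 4 with 1 library left out. The pseudocount of 0.1, the fit without a filter and the filter at a mean FPKM of 5 each gave 3. The filter at 5 left Rara, Aldh1a3 and Cyp26a1 untested in every comparison, so they could not be called there. Both kinds of array weights gave 6, where 9688 (REML) and 9780 (gene-by-gene) of all 12694 genes tested were called. For the knock-in label 4 were called, with 2 under the pseudocount of 0.1, the filter, quantile normalization and the GC slope. The groups alone gave 0, and leaving out 1 library gave 1 to 6. REML array weights gave 7, where 10680 of all 12694 genes tested were called. Between control regions 5 were called, 3 under the filter and 5 to 6 with 1 library left out. Causes were not tested.

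With the replicate number as a block, 5427 genes and 4 retinoid genes were called for the knockout label, and 2892 genes and 6 retinoid genes between control regions. Deviations of same-numbered libraries correlated at 0.033, 0.059 and -0.255 in the hindstomach and at 0.284 and -0.145 between control regions. For replicate number 2 of the forestomach groups they correlated at -0.652. The numbers were thus not taken to pair libraries. For the knock-in label alone, no paired analysis was possible because the forestomach groups shared only replicate number 2. With 3 libraries in most groups, low genes such as Cyp26b1 and Stra6 are measured with little precision.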

Other observations

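Across the 14 libraries, the 7 tested retinoid genes differed in how their log2 levels varied with each other. Aldh1a3 and Cyp26a1 correlated at 0.88, Aldh1a2 and Cyp26a1 at 0.795, and Aldh1a2 and Rarb at 0.753, while Aldh1a1 and Aldh1a2 correlated at -0.712. These are descriptions over libraries that share groups, without a test. Aldh1a3 passed the filter only through the forestomach controls, where Cyp26a1 was also highest, so the value for that pair was partly set by the filter. Among the receptor genes, Rarb made up 42.9% to 52.7% of the summed FPKM of Rara, Rarb and Rarg in hindstomach controls and 60.4% to 87.5% in the libraries labelled knockout. It made up 52.8%, 51.4% and 88.8% in forestomach controls 2, 3 and 5 and 75.8% to 89.5% in those labelled knock-in. The sum includes Rara, which varied with the GC slope within groups, and the part of the slope in these shares was not tested.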
